A study of Mus musculus with 12 samples.

Results

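The 10 genes described here encode the precursors of non-opioid neuropeptides: Cartpt, Npy, Sst, Cck, Vip, Crh, Nts, Tac1, Tac2 and Trh. They were taken by gene symbol from the 22180 genes that had a probeset of their own on the array, and each of the 10 was represented by exactly 1 such probeset. RNA was measured in the nucleus accumbens (NAC), a part of the ventral striatum that serves reward and motivation, from adult female mice of the outbred hsd:ICR stock. The postpartum group consisted of 6 lactating mothers on postpartum day 7, whose litters had been standardized to 11 pups at birth. The virgin group consisted of 6 age-matched females in diestrus, collected on the same days as the mothers. The mothers had lived with a breeder male and the virgins with other females before both were housed alone, so that mating, pregnancy, birth, lactation and the presence of pups all differed together between the groups and cannot be told apart. Core and shell of the NAC were punched together from frozen sections, and 1 array (GeneChip Mouse Gene 2.0 ST) was run per mouse.

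Neuropeptides are made as larger precursor proteins, which convertases and other enzymes cut into active peptides inside dense core vesicles. The peptides are released during strong firing and act mostly on G protein-coupled receptors of neighbouring cells. In the striatum, Tac1 is a marker of the projection neurons that carry the D1 dopamine receptor, Npy and Sst mark a class of sparse interneurons that also make nitric oxide, and the peptide encoded by Cartpt was named for its induction by psychostimulants in the rat. An array of punched tissue measures precursor RNA in the cells the punch holds, and not the peptides that arrive in axons from elsewhere.

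Transcription of several neuropeptide genes responds to cyclic AMP through a short palindrome, TGACGTCA, the cAMP response element first described for somatostatin. The promoter stretches of Cartpt, the gene whose level differed between the groups, and of Sst, whose level did not pass the test, are printed because both hold the complete element. In the 250 bases before each annotated start (RefSeq, build GRCm38.p6), searched on both strands, TGACGTCA occurred in 2 of the 9 members with an entry and in 508 of 32851 promoters (1.55%). Its core TGACG, which also counts every complete element, occurred in 7 of 9 members and in 17.8% of all promoters, and was not in the windows of Npy and Tac2. The AP-1 motif TGANTCA occurred in 1 of 9, Nts, against 6.75% of all promoters. Capitals mark the complete element in Cartpt (chr13:99900764-99900819, minus strand), which begins 112 bases before the start, and in Sst (chr16:23890861-23890916, minus strand), which begins 48 bases before it. In Vip (chr10:5639115-5639167, plus strand) they mark the core, which begins 79 bases before the start.
Cartpt: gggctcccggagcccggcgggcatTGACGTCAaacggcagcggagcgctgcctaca
Sst: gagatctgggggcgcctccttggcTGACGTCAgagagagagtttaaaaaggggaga
Vip: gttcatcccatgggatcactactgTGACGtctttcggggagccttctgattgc
These are matches of letters and not measured binding sites.

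The arrays were alike in scale, with median intensities from 153.0 to 164.98 and Spearman correlations between any pair of arrays from 0.976 to 0.99. All 8 measured markers of the striatum were brighter than at least 92.6% of probesets. The unit throughout is the PLIER intensity, a linear summary of the probes of a probeset, and group differences are postpartum minus virgin on the log2 scale. No probeset reached an adjusted p under 0.05 in limma (lowest adjusted p = 0.106 of 41345 probesets), while 3685 fell under 0.05 before adjustment. Calls therefore use the thresholds of the study on the unadjusted limma p, the first at 0.01 and the second at 0.03, and "rose" and "fell" are kept for genes that passed the second. Across all 22180 genes 2.8% passed 0.01, 1.72% upward and 1.08% downward, and 6.56% passed 0.03, 3.68% upward and 2.89% downward. Of the 10 neuropeptide genes, 0 passed 0.01 and 1, Cartpt, passed 0.03 by falling. A count of 1 in 10 is close to the background share, and the median difference of the 10 genes, 0.03, lay near that of all genes, -0.01. The point estimates were positive for 6 genes and negative for 4.

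**Figure D1:**
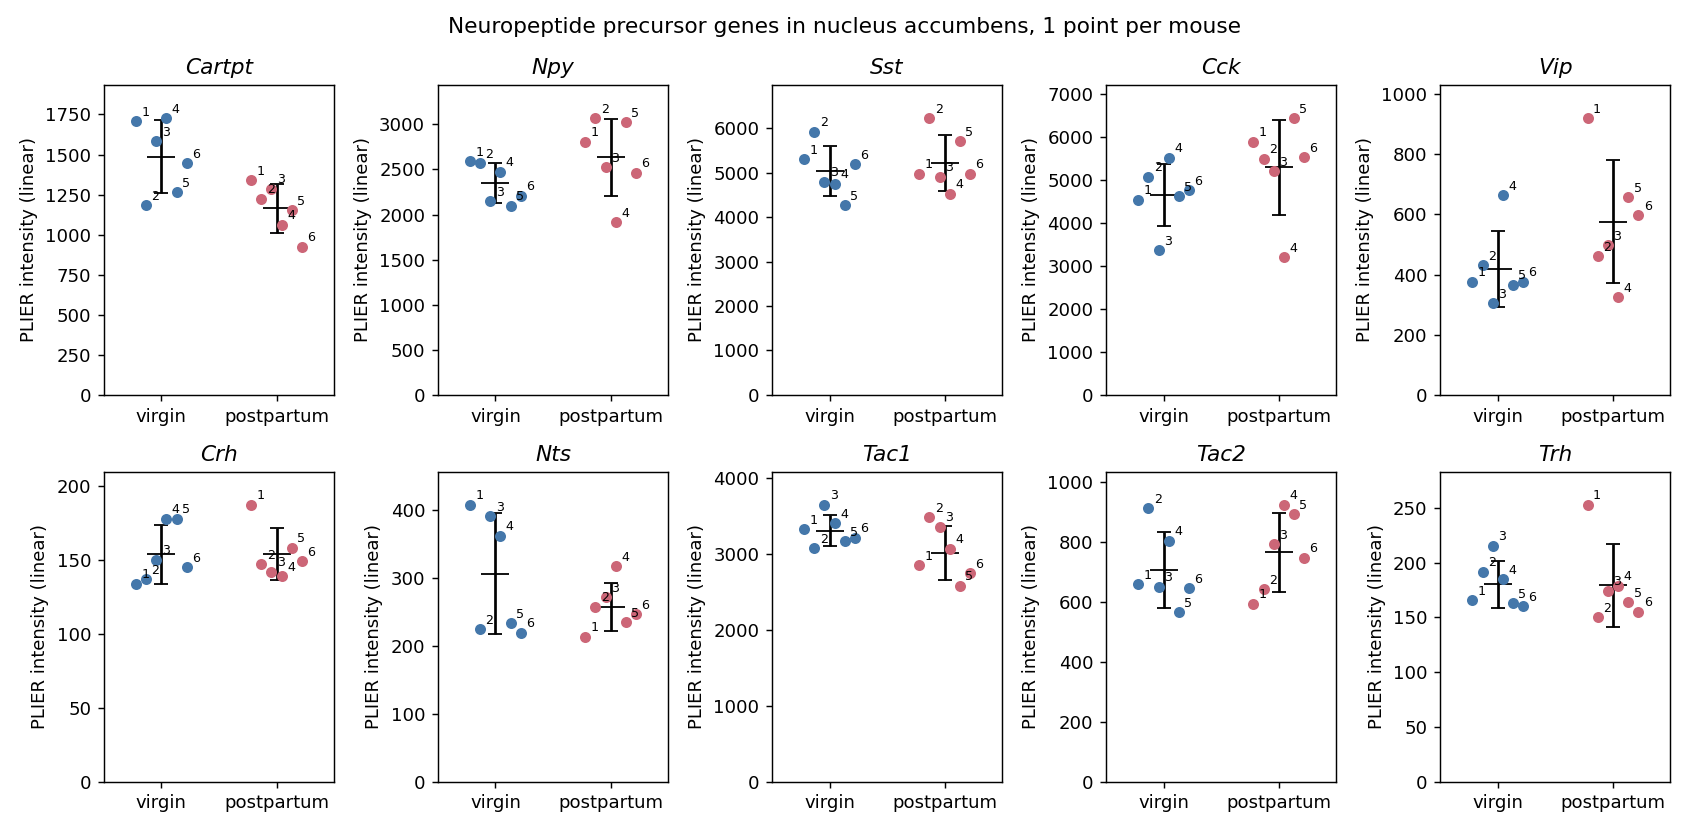
PLIER intensity (linear, axis from 0) of the 10 neuropeptide precursor genes in each of 6 virgin and 6 postpartum mice, numbered by replicate, with the mean as a horizontal line and the SD as an error bar. All 6 postpartum values of Cartpt lie below the virgin median of 1514, while the other genes overlap more widely and postpartum 4 is the lowest of all 12 mice for Npy and Cck.

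Cartpt, the precursor of the cocaine- and amphetamine-regulated transcript peptides, was the gene that fell. Its intensity ran from 926 over a median of 1188 to 1341 in postpartum mice and from 1182 over 1514 to 1727 in virgin mice. All 6 postpartum values lay below the virgin median, 3 of them below every virgin value, and 4 virgin values lay above every postpartum value, so the groups overlapped in the range shared by virgin 2 and virgin 5 with postpartum 1, 2 and 3. The means were 1165 ± 153.0 and 1485 ± 228 (SD, n = 6 each). The difference was -0.35 (standard error 0.12, 95% interval -0.60 to -0.09), a change of -21.3%, with limma p = 0.0121, adjusted p = 0.442 and a two-sided exact permutation p = 0.0238. The smallest p that 6 against 6 mice allow in the permutation test is 0.00216. In tissue RNA, fewer cells that make a transcript and less of it per cell cannot be told apart, and this holds for every gene below.

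Cartpt passed the second threshold whichever lone array was left out. With each array left out in turn the difference stayed between -0.41 and -0.28, with a limma p from 0.00374 to 0.0293 and an exact permutation p from 0.0108 to 0.0455. With postpartum 4 and virgin 3 left out together, the arrays at the ends of several cell marker lists, it was -0.30 and no longer passed (limma p = 0.0517, exact permutation p = 0.0873, 5 mice each). After removal of group means, the strongest relation of Cartpt with a marker list was that with the 8 endothelial markers (Pearson r = 0.72, permutation p = 0.0119, rho = 0.62, permutation p = 0.0304, adjusted p = 0.128 over 130 relations, r = 0.77 without the 2 arrays farthest from the median). With the markers of parvalbumin interneurons r was 0.40, with those of D1 projection neurons 0.19, with those of the striatum 0.15 and with those of cortical neurons 0.09. The endothelial list itself had mean log2 levels of 8.55 to 8.85 in postpartum and 8.63 to 8.80 in virgin mice (difference 0.03, exact permutation p = 0.706), and its part in the result was not tested. The 3 genes of above-median brightness whose levels followed Cartpt most closely between mice, among 13308, were Cyb5r4 (r = 0.92), Slco5a1 (r = 0.90) and Derl2 (r = 0.89), each over 12 arrays after removal of group means. That likeness is between mice of a group: Cyb5r4 and Derl2 were higher in mothers by 0.20 each, against the lower Cartpt, and Slco5a1 was at -0.10.

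**Figure D2:**
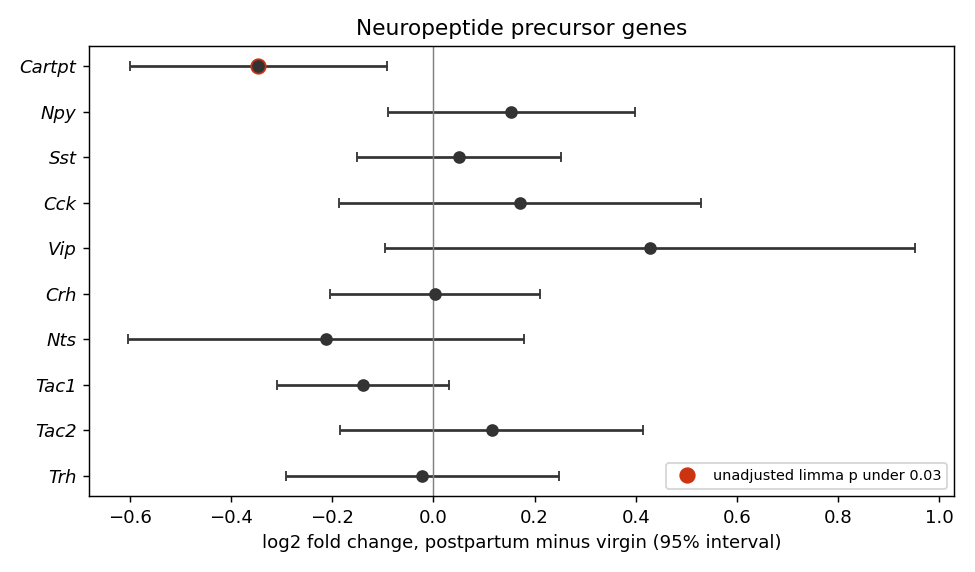
Difference between postpartum and virgin NAC in log2 units (x axis) for each of the 10 genes, with the 95% interval from limma as a bar and 6 mice per group. The interval of Cartpt, -0.60 to -0.09, is the only one of the 10 that lies wholly to one side of zero.

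Npy and Sst are the peptides of the nitric oxide-producing interneurons. Npy encodes neuropeptide Y, which promotes feeding and dampens stress responses, and ranged from 1917 over 2665 to 3069 in postpartum mice and from 2096 over 2341 to 2591 in virgin mice. In all, 5 postpartum values lay above the virgin median and 3 above every virgin value, but postpartum 4 was the lowest of all 12. The difference of 0.15 (95% interval -0.09 to 0.40) did not pass (limma p = 0.193, exact permutation p = 0.212). Without postpartum 4 it was 0.24 and passed the second threshold (limma p = 0.0153, exact permutation p = 0.0368, 5 against 6 mice). Leaving out any other lone array did not change the call. With postpartum 4 and virgin 3 both left out it was 0.22 and did not pass (limma p = 0.0332, exact permutation p = 0.0714).

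Sst encodes somatostatin, an inhibitory peptide. It ranged from 4529 over 4979 to 6228 in postpartum and from 4266 over 4997 to 5921 in virgin mice, and the groups covered nearly the same range. The difference was 0.05 (95% interval -0.15 to 0.25, limma p = 0.594, exact permutation p = 0.602). Levels of Npy varied with those of Sst and also with those of Cck. For Npy and Sst, once group means were removed, r was 0.78 over 12 arrays (permutation p = 0.00414, rho = 0.83, permutation p = 0.00205), 0.86 within the postpartum and 0.71 within the virgin mice (exact permutation p = 0.0347 and p = 0.1), and 0.70 without postpartum 2 and 4. Over the 45 pairs of members the adjusted p was 0.117 for r and 0.0461 for rho. For Npy and Cck r was 0.80 (permutation p = 0.00851, rho = 0.60, permutation p = 0.0474, adjusted p = 0.128 for r and 0.533 for rho), 0.91 within postpartum and 0.53 within virgin mice, and 0.63 without postpartum 2 and 4. The other 4 markers of these interneurons, Nos1, Chodl, Lhx6 and Satb1, had a mean log2 level of 8.20 to 8.55 in postpartum and 8.21 to 8.44 in virgin mice (difference 0.01, exact permutation p = 0.859), and 0 of them passed 0.03. Their mean level ran against Npy (r = -0.59, permutation p = 0.0876, 0.11 without postpartum 4 and virgin 3) and had an r of -0.23 with Sst (permutation p = 0.508). Of the 4, Chodl was dim, with 28.4% of probesets dimmer than it. Npy had a larger r in size with VIP/CCK interneuron markers (0.65, permutation p = 0.0295, adjusted p = 0.198). With markers of septum, bed nucleus of the stria terminalis and pallidum it was -0.70 (permutation p = 0.0424, adjusted p = 0.262, -0.035 without postpartum 4 and virgin 3).

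Cck and Vip are peptides of cortical-type interneurons, and Cck is also made abundantly by glutamatergic neurons of the cortex. Cck encodes cholecystokinin, known for satiety in the gut and anxiety in the brain. It ranged from 3199 over 5515 to 6441 in postpartum and from 3374 over 4691 to 5523 in virgin mice. In all, 5 postpartum mice lay above the virgin median, 3 of them above every virgin mouse, and postpartum 4 lay below every virgin mouse, with a 2.01-fold range among mothers. The difference was 0.17 (95% interval -0.19 to 0.53, limma p = 0.319, exact permutation p = 0.359). It passed without postpartum 4, at 0.31 (limma p = 0.0196, exact permutation p = 0.0152), and with postpartum 4 and virgin 3 both left out, at 0.22 (limma p = 0.0152, exact permutation p = 0.0238). It was smaller without virgin 3, at 0.08 (limma p = 0.612, exact permutation p = 0.701), and without postpartum 5, at 0.11 (limma p = 0.535, exact permutation p = 0.53).

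Vip encodes vasoactive intestinal peptide, which raises cyclic AMP in its target cells and widens blood vessels. It had the largest point estimate of the 10 genes and the largest spread. The intensity ran from 325 over 546 to 919.5 in postpartum and from 304 over 376 to 664 in virgin mice, with postpartum 1 highest, virgin 4 next and postpartum 4 and virgin 3 lowest. The difference of 0.43 (standard error 0.24, 95% interval -0.10 to 0.95) did not pass (limma p = 0.1, exact permutation p = 0.134). It was 0.58 without postpartum 4 (limma p = 0.0216, exact permutation p = 0.0411) and 0.57 without virgin 4 (limma p = 0.0263, exact permutation p = 0.0433), and both of these passed. It was 0.28 without postpartum 1 (limma p = 0.224, exact permutation p = 0.255). With postpartum 4 and virgin 3 both left out it was 0.49 and did not pass (limma p = 0.0472, exact permutation p = 0.0794). The SD of Vip within groups was larger than that of 99.5% of genes of above-median brightness, that of Nts larger than 98.5% and that of Cck larger than 98.1%.

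Most of the spread of Cck and Vip was shared. The correlation of their levels without group means was 0.82 over 12 arrays (permutation p = 0.00519, rho = 0.85, permutation p = 0.00067, adjusted p = 0.117 for r and 0.0301 for rho over 45 pairs), 0.81 within postpartum and 0.83 within virgin mice (exact permutation p = 0.0542 and p = 0.0806), and 0.76 without postpartum 4 and virgin 3. Both followed the cortical glutamatergic markers, 8 genes that include Slc17a7, Tbr1 and Neurod6 which mark neurons of the cortex rather than of the NAC. For Cck, r with their mean level was 0.89 over 12 arrays (permutation p = 0.00074, rho = 0.88, permutation p = 0.00065, adjusted p = 0.0321 and 0.0422 over 130 relations), 0.98 within postpartum and 0.66 within virgin mice (exact permutation p = 0.00139 and p = 0.146), and 0.69 without postpartum 4 and 5. For Vip it was 0.77 (permutation p = 0.00858, rho = 0.78, permutation p = 0.00564, adjusted p = 0.101 for r and 0.105 for rho). That r was 0.88 within postpartum and 0.545 within virgin mice (exact permutation p = 0.0222 and p = 0.267), and 0.65 without postpartum 4 and 5. The mean log2 level of the 8 markers was 9.84 to 10.36 in postpartum and 9.93 to 10.21 in virgin mice (difference 0.13, exact permutation p = 0.169), with 0 of 8 past 0.03. Postpartum 4 and virgin 3 were the lowest of all mice in these markers and postpartum 5 and 1 the highest, and the part of this variation in the results for Cck and Vip was not tested.

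**Figure D3:**
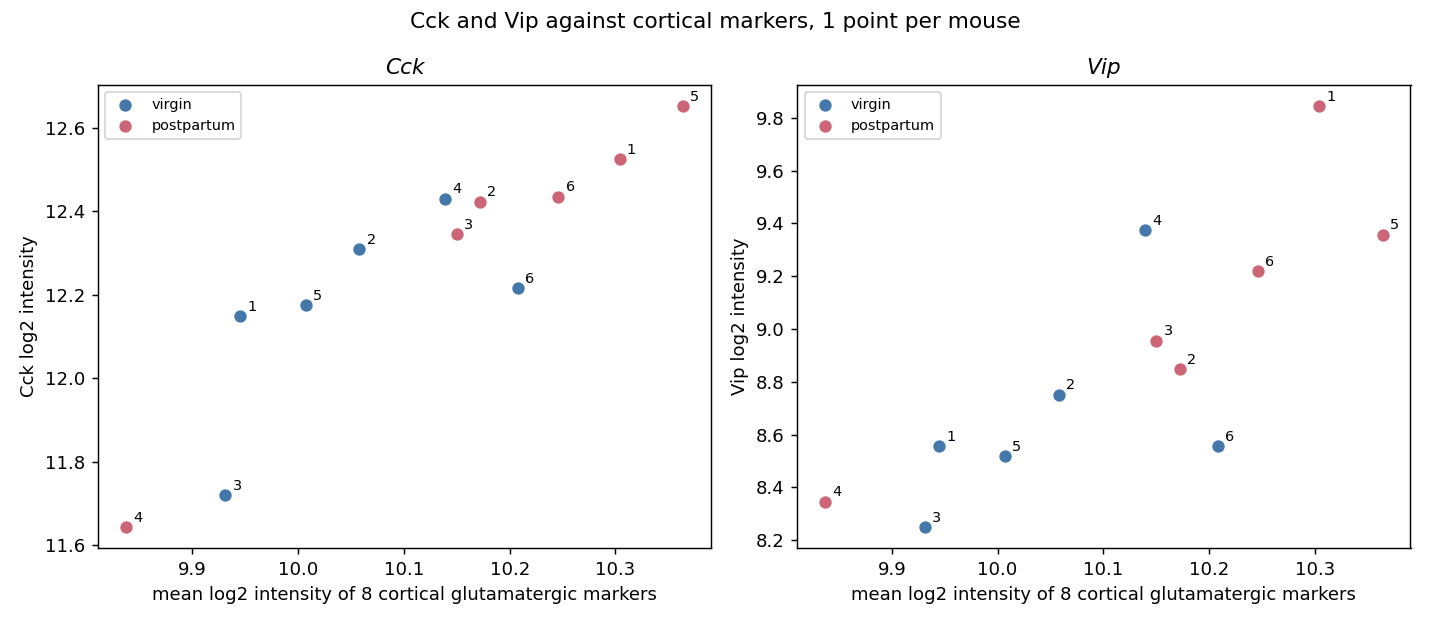
Log2 intensity of Cck (left) and Vip (right) against the mean log2 intensity of 8 cortical glutamatergic markers, 1 point for each of 12 mice, numbered by replicate and coloured by group. Both genes are lowest in postpartum 4 and virgin 3, which also have the lowest marker levels of 9.84 and 9.93.

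Cck also moved with the 6 other markers of VIP/CCK interneurons (r = 0.87 over 12 arrays, permutation p = 0.00038, rho = 0.81, permutation p = 0.00279, adjusted p = 0.0247 for r and 0.0725 for rho) and against the 5 markers of cholinergic interneurons (r = -0.87, permutation p = 0.00026, rho = -0.85, permutation p = 0.00142, adjusted p = 0.0247 for r and 0.0462 for rho). Without the 2 arrays farthest from the median these were 0.85 and -0.70. They and the relation with cortical markers were the only 3 of the 130 relations between the 10 genes and 13 marker lists with an adjusted p under 0.05 for r, and 22 had an unadjusted p under 0.05. With the 9 markers of septum, bed nucleus of the stria terminalis and pallidum, Cck had r = -0.89 (permutation p = 0.0128, rho = -0.40, permutation p = 0.224, adjusted p = 0.128 and 0.534). That r was -0.08 without postpartum 4 and virgin 3, the highest mice of that list. Of the 9, 2 passed 0.01 by rising, Trpc4 (0.50) and Slc17a6 (0.41), against 1.72% of all genes, and 7 did not pass 0.03. The part of these markers was not tested. Vip was related to the same VIP/CCK list (r = 0.84, permutation p = 0.00253, rho = 0.89, permutation p = 0.00022, adjusted p = 0.0658 for r and 0.0286 for rho). It ran against the cholinergic markers (r = -0.83, permutation p = 0.00246, rho = -0.76, permutation p = 0.0103, adjusted p = 0.0658 and 0.124) and against the D1 markers (r = -0.80, permutation p = 0.00309, rho = -0.90, permutation p = 0.00113, adjusted p = 0.0669 and 0.0462). Its r was -0.78 both with the striatal and with the D2 markers, so that 5 lists had a larger r in size with Vip than the cortical list. The VIP/CCK interneuron list had a mean log2 level of 8.58 to 9.05 in postpartum and 8.30 to 8.74 in virgin mice (difference 0.23, exact permutation p = 0.0368). This p was not adjusted over the 13 lists, and the groups overlapped. Calb2, the calcium buffer calretinin, was the 1 of its 6 genes that passed 0.03, where 3.68% of all genes did so upward. It rose by 0.58 from 515 ± 77.8 to 777 ± 164 (SD, n = 6, limma p = 0.00188, exact permutation p = 0.00433). The part of this list in the levels of Cck and Vip was not tested.

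The tachykinins are encoded by Tac1 and Tac2. Tac1 gives substance P and neurokinin A and belongs to D1 projection neurons. Its intensity was 2577 over 2957 to 3483 in postpartum and 3073 over 3269 to 3643 in virgin mice. Of the postpartum values 4 lay below every virgin value and the other two, postpartum 2 and 3, were among the 4 highest of all mice. The difference was -0.14 (95% interval -0.31 to 0.03, limma p = 0.0997, exact permutation p = 0.106). Between mice Tac1 varied with the 6 other markers of D1 neurons (r = 0.82 over 12 arrays, permutation p = 0.00634, rho = 0.76, permutation p = 0.0175, adjusted p = 0.0824), with r = 0.89 within postpartum and 0.66 within virgin mice (exact permutation p = 0.0347 and p = 0.156) and 0.70 without postpartum 2 and virgin 3. These 6 markers were at 9.78 to 10.23 log2 in postpartum and 10.10 to 10.47 in virgin mice (difference -0.23, exact permutation p = 0.0541). Of the 6, 3 passed 0.03 by falling, against 2.89% of all genes. They were Drd1 (-0.34, exact permutation p = 0.0346), Pdyn (-0.38, exact permutation p = 0.0411) and Chrm4 (-0.29, exact permutation p = 0.013), which encode the D1 dopamine receptor, prodynorphin and a muscarinic receptor. On the same list Isl1 was at -0.44 (exact permutation p = 0.156), Sfxn1 at 0.10 (exact permutation p = 0.117) and Eya1 at 0.004 (exact permutation p = 0.959). The 8 general striatal markers were lower as well (11.03 to 11.29 against 11.21 to 11.41, difference -0.16, unadjusted exact permutation p = 0.0281). Of these 8, 2 passed 0.03 by falling, against 2.89% of all genes. The 6 D2 projection neuron markers differed by -0.10 (exact permutation p = 0.199), with a negative estimate for 5 and a positive one for 1. Of these 6, 1 passed 0.03 by falling, Penk (-0.23, limma p = 0.0143, exact permutation p = 0.0152). The part of the D1, D2 and striatal markers in the values of Tac1 and Cartpt was not tested.

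Tac2, the mouse gene of neurokinin B, ranged from 594 over 769.7 to 924 in postpartum and from 566 over 655 to 912 in virgin mice, with both groups spread over the same range. The difference was 0.12 (95% interval -0.18 to 0.41, limma p = 0.418, exact permutation p = 0.433). It moved with single arrays, to 0.055 without virgin 5, 0.057 without postpartum 4 and 0.067 without postpartum 5, and to 0.184 without postpartum 1 and 0.193 without virgin 2, and passed in none of these fits. Nts encodes neurotensin, a modulator of dopamine signalling. It ran from 214 over 252 to 317 in postpartum and from 219 over 298 to 408 in virgin mice. The values of virgin 1, 3 and 4 lay above every postpartum mouse and those of virgin 2, 5 and 6 among the lowest, and 5 postpartum mice lay below the virgin median. The difference was -0.21 (95% interval -0.60 to 0.18, limma p = 0.26, exact permutation p = 0.299). With virgin 2 and 6 left out, the arrays of lowest correlation with the rest, it was -0.42 and passed 0.03 (limma p = 0.0282, exact permutation p = 0.0619). It was -0.12 without virgin 1 (limma p = 0.505, exact permutation p = 0.528) and -0.13 without virgin 3 (limma p = 0.479, exact permutation p = 0.511).

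Crh and Trh are best known as hypothalamic releasing hormones, Crh for the stress axis and Trh for the thyroid axis. Of all probesets, 49.2% were dimmer than that of Crh and 53.8% dimmer than that of Trh. Crh ranged from 139 over 148 to 187 in postpartum and from 134 over 147.5 to 178 in virgin mice, the same range in both groups. Its difference was 0.003 (95% interval -0.20 to 0.21, limma p = 0.973, exact permutation p = 0.976). Trh ranged from 149.9 over 169 to 253 in postpartum and from 160.03 over 175 to 215 in virgin mice, with postpartum 1 far above the other mothers. Its difference was -0.02 (95% interval -0.29 to 0.25, limma p = 0.864, exact permutation p = 0.887). Changes of the size of the interval ends cannot be told from none for either gene with 6 arrays per group.

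All 24 receptor genes of these peptides on the list were measured. There 1 passed 0.03, by rising, and 0 fell or passed 0.01, a share near the background, with a median difference of 0.003 and a range from -0.19 to 0.24. The gene that rose was Npy1r, the Y1 receptor, through which neuropeptide Y inhibits its target neurons. Its intensity was 771 over 838 to 910.16 in postpartum and 624 over 691 to 912 in virgin mice. All 6 mothers lay above 5 of the 6 virgins, and the exception, virgin 3, was the highest of all 12. The difference was 0.24 (standard error 0.08, limma p = 0.015, adjusted p = 0.457, exact permutation p = 0.0216). Without virgin 3 it was 0.31 (limma p = 0.00012, exact permutation p = 0.00216), while it no longer passed without postpartum 6 (limma p = 0.0353, exact permutation p = 0.0476), virgin 1 (limma p = 0.0336, exact permutation p = 0.0476), virgin 5 (limma p = 0.0353, exact permutation p = 0.0476) or virgin 2 and 6 together (limma p = 0.0551, exact permutation p = 0.0667).

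The other neuropeptide Y receptors gave 0.20 for Npy2r (95% interval -0.22 to 0.61), -0.11 for Npy5r (-0.25 to 0.02), -0.02 for Npy4r and 0.09 for Npy6r. The somatostatin receptors ran from -0.10 for Sstr5 to 0.20 for Sstr4, whose interval was -0.04 to 0.43. Cckbr, the brain form of the cholecystokinin receptors, was at 0.04 (95% interval -0.13 to 0.21), and the VIP receptors Vipr1 and Vipr2 at -0.03 and -0.01. Of the tachykinin receptors, Tacr2, which prefers neurokinin A, had the second smallest p of the list at -0.19 (limma p = 0.0343, exact permutation p = 0.0433), with 34.4% of probesets dimmer than it. The neurotensin receptor Ntsr1 was at -0.11, Ntsr2 at 0.08 and the sorting receptor Sort1, which also binds neurotensin, at 0.02. The receptors of Crh and Trh ran from -0.13 for Trhr2 to -0.03 for Trhr, and 0 of these 4 passed. The list holds no receptor for the CART peptides.

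**Figure D4:**
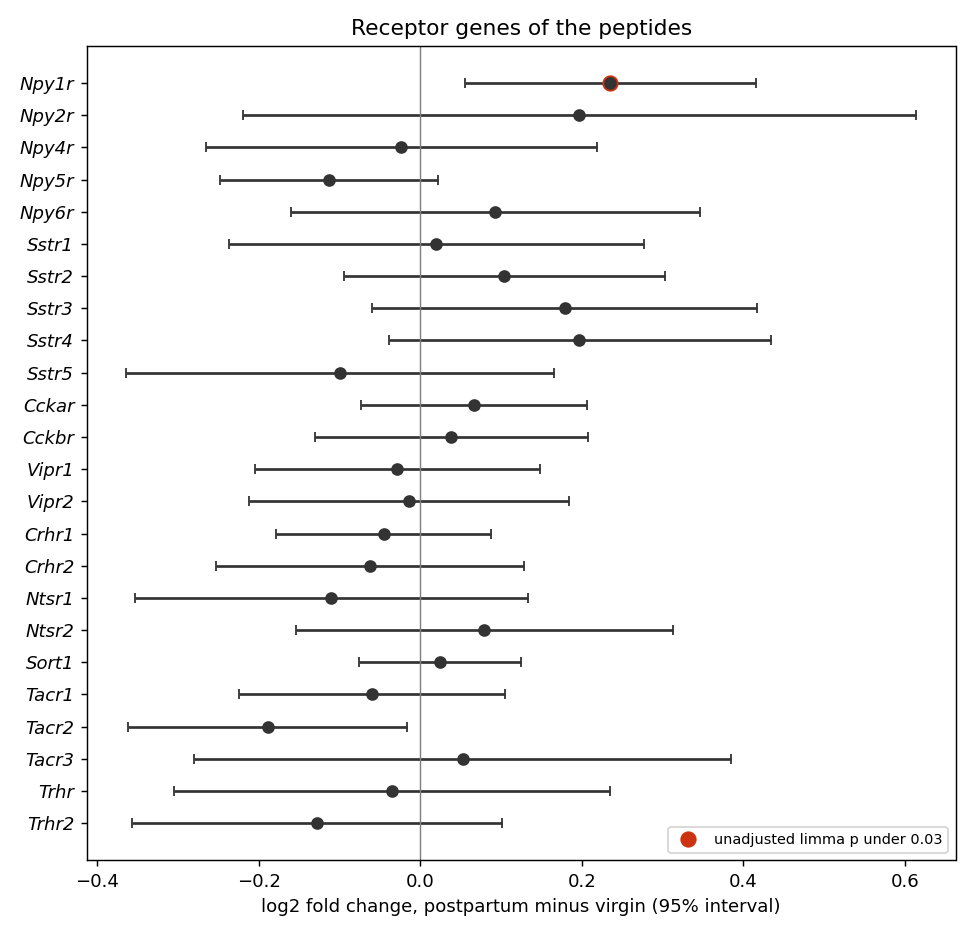
Difference between postpartum and virgin NAC in log2 units (x axis) for 24 receptor genes of the peptides, with the 95% interval from limma as a bar and 6 mice per group. Npy1r, at 0.24, is the gene of the 24 past the second threshold, and Tacr2, at -0.19, comes next.

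The machinery shared by all these peptides gave few calls. Of 13 measured genes for prohormone processing, 0 passed 0.03, with a median difference of 0.06. The smallest limma p belonged to Pcsk1, the convertase that makes the first cuts in many precursors, at 0.22 (656 ± 124 against 559 ± 49.7, SD, n = 6, limma p = 0.0733, exact permutation p = 0.0714), and to Cpd, a carboxypeptidase, at 0.10 (limma p = 0.104, exact permutation p = 0.0736). By the exact permutation test Cpe, carboxypeptidase E, had a smaller p than either, at 0.06 (6067 ± 112 against 5836 ± 153, limma p = 0.14, exact permutation p = 0.0152), with all 6 mothers above the virgin median. Of 14 genes for dense core vesicles and granins, 1 rose and 0 fell, a share near the 6.56% of all genes that passed 0.03. The gene that rose was Cadps2, which primes dense core vesicles for release, with 608 over 802 to 998 in postpartum and 403 over 635 to 733 in virgin mice. In all, 5 mothers lay above every virgin mouse, and postpartum 4 and virgin 3 were the lowest of their groups. The difference was 0.38 (standard error 0.15, limma p = 0.0282, adjusted p = 0.517, exact permutation p = 0.0303), and it no longer passed in 8 of 12 leave-one-out fits (differences from 0.26 to 0.39 and exact permutation p from 0.0498 to 0.0693 in those 8). It did pass with postpartum 4 and virgin 3 both left out, at 0.34 (limma p = 0.00503, exact permutation p = 0.00794). The same held with virgin 2 and 6 both left out, at 0.51 (limma p = 0.00993, exact permutation p = 0.0143).

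Vgf, a granin-like precursor induced by neurotrophins, came next at 0.16 (1619 ± 113 against 1454 ± 144, limma p = 0.0471, exact permutation p = 0.0519), while the granins Chga, Chgb and Scg2 were at 0.16, -0.05 and -0.05. Of 11 measured genes that bind or degrade the peptides, 0 passed. Nln, the peptidase neurolysin that cleaves neurotensin, was at -0.09 (limma p = 0.0456, exact permutation p = 0.0152) and Anpep, an aminopeptidase, at -0.32 (limma p = 0.0638, exact permutation p = 0.0931), with all 6 mothers below the virgin median for both. Crhbp, which binds and buffers CRH, was at 0.18 (95% interval -0.28 to 0.64). Of 46 other measured non-opioid neuropeptide genes 0 passed 0.03, with a median of -0.03 and a range from -0.17 to 0.32. The smallest p values were those of Npff, an RF-amide precursor, at -0.10 (limma p = 0.0375, exact permutation p = 0.0173) and Gnrh1, the gonadotropin-releasing hormone, at 0.32 (limma p = 0.0697, exact permutation p = 0.0866). Brightness among the 46 was uneven: 15.4% of probesets were dimmer than Nps, 37.4% than Oxt and 47.4% than Gnrh1, against 86.2% for Nucb2. For the dim ones, the absence of a call does not show that they were expressed and unchanged. Lnpep, Pcsk2, Agrp and Calca were on these lists and were not analysed here.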

How the data were processed

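Arrays of the NAC of 6 postpartum and 6 virgin mice were grouped by the submitters' labels, which call them biological replicates. The authors summarized and normalized the probes with PLIER (the study names Expression Console, the submitters' notes also Affymetrix Power Tools 1.12.0) and deposited a linear intensity for each of 41345 probesets. The log2 of the deposited intensity was taken, with values under 1 set to 1. Names came from the platform annotation, which assigns a single gene to 23521 probesets (22180 genes), and the brightest stood for a gene. The fit across all probesets used limma 3.58.1 under R 4.3.3, with no covariate (the study states none) and with Benjamini-Hochberg adjustment over all of them. The fit was tested on simulated data. Beside it stand exact permutation tests (two-sided, on log2 values, numpy 2.4.6), and 100000 permutations within groups for correlations, with ranks from scipy 1.17.1. Marker scores are mean log2 levels without the 10 genes themselves. Promoters are those of RefSeq, and no entry was used for Crh.

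The 10 genes, the lists of receptors, enzymes, vesicle genes, other neuropeptides and cell markers, and the tests were chosen with earlier results of these data known. The text names all 10 genes, in each list other than markers the genes with p under 0.03 or, where fewer than 2 passed, those of smallest p, and the 3 genes most like Cartpt. Other genes named beside them, among them Calb2, Drd1, Chrm4, Isl1, Sfxn1, Eya1, Trpc4, Slc17a6, Cpe and the further receptors and granins, were chosen after their values were seen. So were Penk, Nps, Oxt and Nucb2. Alternatives were quantile normalization, median centring, linear intensities, log2 of the intensity plus 16, array weights, robust eBayes, a variance trend, above-median probesets only, a replicate block, and each array left out. Leaving out postpartum 4 with virgin 3, or virgin 2 with virgin 6, was added after seeing the data. The number of arrays limits the precision, together with the spread between mice, which differed by gene. The intensities carry no count or depth, and no background level was used.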

Additional observations from a re-analysis of the deposited data

Results flagged for a closer look

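Each gene was examined in each group for a mouse far from the other 5, by the gap between the extreme mouse and its nearest neighbour over the whole range of the group on the log2 scale (against Dixon's 95% critical value). Of 20 groups examined, 2 exceeded it, where chance marks about 1 in 20. Cck in postpartum 4 was 3199, the lowest of the mothers, with the next at 5206. Its gap over range was 0.696 on the log2 scale and 0.619 on the linear scale, where it did not exceed the critical value. Trh in postpartum 1 was 253, the highest of the mothers, with the next at 179, and its gap over range was 0.663 on the log2 scale and 0.719 on the linear scale.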

How the results depend on the processing

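Cartpt stayed lower in the 12 fits with an array left out and under the 11 other alternatives run (-0.43 to -0.28) and stayed past 0.03 in all of them except with postpartum 4 and virgin 3 left out (-0.30). The number of the 10 genes past 0.01 was 0 and became 1, Cartpt, under quantile normalization, log2 of the intensity plus 16, above-median probesets only, the variance trend, array weights, and without virgin 2 and 6. It was 0 to 1 with arrays left out in turn, with 1 reached without postpartum 1, virgin 2 or virgin 5. The number past 0.03 was 1 under each alternative that kept all arrays, 2 without virgin 2 and 6 (Cartpt and Nts), 1 (Cck) without postpartum 4 and virgin 3, and 1 to 4 with arrays left out in turn. It was 4 without postpartum 4 (Cartpt, Npy, Cck and Vip) and 2 without virgin 4 (Cartpt and Vip). The differences of Sst, Crh and Trh had no settled sign. With arrays left out in turn Sst ran from -0.002 to 0.099, Crh from -0.055 to 0.048 and Trh from -0.125 to 0.032. Crh was -0.01 with array weights and -0.054 without virgin 2 and 6. Trh was 0.012 under quantile normalization and under median centring, and 0.028 without postpartum 4 and virgin 3. The causes were not tested. Across the alternatives the number of receptors past 0.03, 1 here, ran from 0 to 3, that of vesicle genes, 1 here, from 0 to 2, and those of binding and degrading genes, processing genes and other neuropeptides, 0 here, from 0 to 1, 0 to 1 and 0 to 2. Cadps2 passed 0.03 in 9 of the 11 other alternatives and no longer passed under quantile normalization (0.36). Crh is not among the above-median probesets and has no value there, and since each of the 10 genes has 1 probeset, the other rules for choosing a probeset could change nothing. The replicate block left Cartpt at -0.346 (block limma p 0.0158) and the counts at 0 and 1. It ended the call of Cadps2. Same-numbered arrays deviated from their group means with correlations of -0.208 to 0.202, 2 of 6 over 0.1, and 2 of 6 correlated best with their own number, so the numbers were not treated as pairs.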

Other observations

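Among 13308 genes of above-median brightness, each searched for likeness to each of the 10 genes over 12 arrays without group means, the gene most like Cck was Tbr1 (r = 0.98), a transcription factor of cortical glutamatergic neurons, followed by Nell2 (r = 0.98) and Dlgap1 (r = 0.97). The gene most like Tac1 was Pdyn (r = 0.93), a peptide precursor of the same D1 projection neurons, and the gene most like Nts was Ache (r = 0.92), which encodes acetylcholinesterase. These genes were singled out after their values were seen, the arrays are the same for both sides of each correlation, and no test is attached to them. Tbr1 is also 1 of the cortical markers and Pdyn 1 of the D1 markers used above, so their likenesses are parts of those relations and not further evidence. Nts itself varied with the cholinergic markers (r = 0.71 over 12 arrays, permutation p = 0.00556, rho = 0.69, permutation p = 0.00719, adjusted p = 0.0803 for r and 0.117 for rho). That r was 0.56 without postpartum 4 and virgin 3, 0.94 within postpartum mice (exact permutation p = 0.0125) and 0.68 within virgin mice (exact permutation p = 0.204). The cholinergic list did not stand apart. Over 12 arrays the r of Nts was 0.69 with parvalbumin markers (permutation p = 0.0228) and -0.58 with cortical markers (permutation p = 0.0214), with an adjusted p of 0.185 for both. Within postpartum mice it was -0.94 with the VIP/CCK, -0.93 with the cortical and 0.90 with the D2 markers.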
